A study of Homo sapiens with 6 samples.

Results

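EVI2A, EVI2B and OMG are 3 small genes that lie inside an intron of NF1, the gene of the tumor suppressor neurofibromin, and these 4 genes were followed in HCCC9810 cells, an established human cholangiocarcinoma (CCA) line, after treatment with isolinderalactone (ILL). EVI2A was chosen by the same counts, as the gene with the largest decrease with ILL among well-measured genes, and the other genes were added by their position around it and not by their own values. All 4 members were found among the 19470 genes of the count table. The ILL group received 20 μM ILL for 24 h and the control group received vehicle (DMSO) for 24 h. Each group had 3 libraries of wild type cells with no other treatment. Wild type does not describe the NF1 or RAS status of this tumor line, which the sources used here do not give. The question put to these libraries is which transcripts of the locus differ between ILL-treated and control cells. The labels do not say whether the libraries of a group came from separate cultures, so p-values measure only the spread between these libraries, which may be technical, and all results are of 1 cell line.

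Neurofibromin is a GTPase-activating protein that speeds the return of RAS from its active GTP-bound to its inactive GDP-bound state, and its loss causes neurofibromatosis. EVI2A and EVI2B were found as sites of retroviral integration in mouse leukemia and encode membrane proteins that are known mainly from blood cells, where EVI2B is the surface antigen CD361. OMG encodes oligodendrocyte myelin glycoprotein, a ligand of the Nogo receptor on neurons. NF1 itself is transcribed in most tissues, and the nested genes are read from the opposite strand.

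On GRCh38, the build named in the submitters' processing notes, GENCODE release 29 places NF1 (ENSG00000196712.17) on chromosome 17 from 31094927 to 31382116 on the plus strand. The nested genes all lie on the minus strand within intron 36 of the longest coding NF1 transcript, which has 58 exons. This intron runs from 31265340 to 31325819 and is 60480 bases long. OMG (ENSG00000126861.4) is annotated from 31272013 to 31297539. EVI2B (ENSG00000185862.6) follows from 31303766 to 31314112, and EVI2A (ENSG00000126860.11) from 31317560 to 31321884, with 3447 bases between EVI2B and EVI2A. A further annotated gene, AC134669.1, spans parts of both EVI2B and EVI2A and is not among the genes counted. The map of the intron shows this order.

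**Figure D1:**
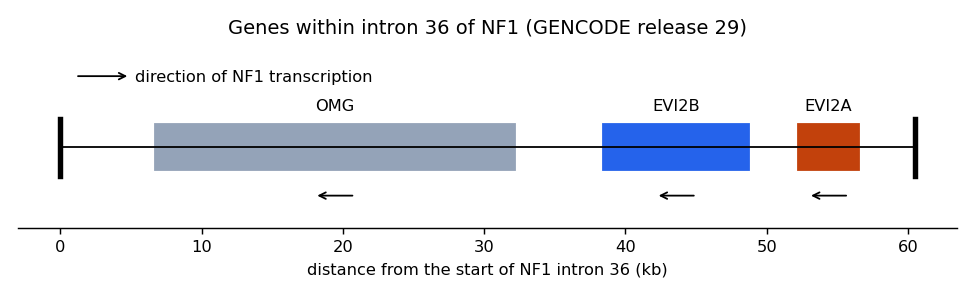
Map of intron 36 of NF1, drawn to scale. The horizontal axis is the distance in kb from the start of the intron, boxes are the annotated spans of the nested genes, thick bars mark the ends of the intron and arrows give the direction of transcription. EVI2A lies nearest to the 3′ end of the intron, beside EVI2B, and OMG lies nearest to its 5′ end.

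The RefSeq promoter table (GRCh38.p14) held 2 of the 4 members, NF1 and OMG, while EVI2A and EVI2B had no entry. The 250 bases before the start of each are shown because the first drives the transcript with the most counts of the locus in these cells and the second a transcript that was barely detected. CpG dinucleotides are in capitals. The NF1 sequence lies at chr17:31094727-31094976 on the plus strand and the OMG sequence at chr17:31297240-31297489 on the minus strand, both printed 5′ to 3′.
NF1: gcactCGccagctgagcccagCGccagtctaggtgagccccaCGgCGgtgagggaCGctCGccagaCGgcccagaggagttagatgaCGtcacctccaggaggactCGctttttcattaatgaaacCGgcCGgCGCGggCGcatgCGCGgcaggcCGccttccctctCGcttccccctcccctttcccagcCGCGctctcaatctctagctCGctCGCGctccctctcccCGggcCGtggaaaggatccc
OMG: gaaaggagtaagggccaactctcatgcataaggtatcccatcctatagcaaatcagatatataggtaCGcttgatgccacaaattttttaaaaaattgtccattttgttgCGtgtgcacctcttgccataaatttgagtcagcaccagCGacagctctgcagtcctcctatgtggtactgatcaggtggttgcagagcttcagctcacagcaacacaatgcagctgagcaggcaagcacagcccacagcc
The NF1 sequence held 25 CpG dinucleotides and had a GC content of 67.2%, and 78.3% of 34788 distinct upstream sequences held fewer CpGs. The OMG sequence held 3 CpGs at a GC content of 46.8%, and 70.6% of the upstream sequences held more. On either strand, the cAMP response element TGACGTCA was found 1 time in the NF1 sequence, starting 166 bases before the transcription start, and in 1.64% of all upstream sequences. The AP-1 motif TGANTCA was found 1 time in the OMG sequence, starting 116 bases before the start, and in 6.59% of all upstream sequences. TATAAA was in neither sequence and in 10.8% of all. These matches describe the letters and were not tested as binding sites.

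The libraries held between 34282764 and 37758569 counted reads, and library sizes were adjusted by edgeR's TMM method to give CPM, the counts of a gene scaled to a common library size. The filter on low counts left 13066 genes, on which edgeR's quasi-likelihood test was run with Benjamini-Hochberg adjustment over all of them. To be called, a gene needed an adjusted p under 0.05 and a level above 2 or under 0.5 times that of controls. These cutoffs follow the study's methods. Over all genes tested, 23.9% were called, 12.5% higher and 11.4% lower with ILL. An adjusted p under 0.05 alone was reached by 73.1% of genes, 36.2% higher and 36.9% lower, and in 75.4% the CPM values of the groups did not overlap. Biliary epithelial markers KRT7, KRT19, KRT8, KRT18, EPCAM, SOX9 and CDH1 were all expressed. Their summed level was between 9050 and 9292 CPM in control libraries and between 9531 and 10120 CPM with ILL. Singly they did not move one way. The log2 fold changes were 2.07 for CDH1, 0.64 for KRT7 and 0.24 for EPCAM. They were -0.82 for KRT18, -0.56 for SOX9, -0.18 for KRT19 and -0.16 for KRT8. Among the members, 3 of 4 passed the filter on low counts, and OMG did not.

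EVI2A was present in control cells and nearly gone after ILL. The control libraries held 309, 320 and 293 counts, or 7.96, 9.11 and 8.29 CPM. The ILL libraries held 10, 2 and 3 counts, or 0.286, 0.0581 and 0.0858 CPM. Every ILL library thus lay far below every control library, and the mean of 8.45 ± 0.592 CPM in controls compared with 0.143 ± 0.124 CPM after ILL (SD, n = 3 each), which is 1.69% of the control level. The fitted log2 fold change was -5.84 (standard error 0.33), a 57.4-fold lower level. Because EVI2A was chosen for this decrease, the value is a description and no test of it is given. In bulk RNA, a loss from all cells and a loss of the cells that carry the transcript cannot be told apart.

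Within the ILL group, replicate 1 held more EVI2A counts than the others. Exact 95% Poisson intervals, which cover counting error only, were 4.80 to 18.4 for its 10 counts, 0.242 to 7.22 for the 2 counts of replicate 2 and 0.619 to 8.77 for the 3 counts of replicate 3, and all of them overlap. Without ILL replicate 1 the fitted log2 fold change was -6.81. ILL replicate 1 also differed in traces of leukocyte genes. Of 28 leukocyte genes it held at least 1 count for 21, against 14 to 18 in the other libraries. It held 9 counts of PTPRC, the pan-leukocyte phosphatase CD45, 27 of the myeloid factor SPI1 and 8 of TYROBP. The other libraries held at most 1, 8 and 0 of these, and these genes were named after their values were seen. Other genes of the list did not go this way. ILL replicate 1 held 2 counts of CD14, against 6 to 25 in the other libraries, and 0 of CSF1R and CD3E. Whether these traces have a part in the EVI2A counts of this library was not tested.

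As its choice fixes, EVI2A was the lowest of 12279 tested genes with a mean of at least 1 CPM in either group. Among all tested genes it was in position 3, after LAMB4, a laminin chain, at -7.05 on the log2 scale and MT1A, a metallothionein, at -6.09. Both were weakly expressed, with LAMB4 at 12, 17 and 21 control counts and 0 in every ILL library, and MT1A at 34, 43 and 20 control counts and 0, 0 and 1 with ILL. The next decreases after EVI2A above that level were in FLG, the epidermal protein filaggrin, with a log2 fold change of -4.98 (standard error 0.15), and in DIO2, a thyroid hormone deiodinase, at -4.48 (standard error 0.43). They were followed by APLN, the peptide ligand apelin, at -4.38, by FAM72C at -4.17 and by MYBL1, a MYB family transcription factor, at -4.14. FAM72C has near-identical copies, so its counts are uncertain. MYBL1 had 1911, 1822 and 1606 counts in controls and 78, 94 and 117 with ILL.

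**Figure D2:**
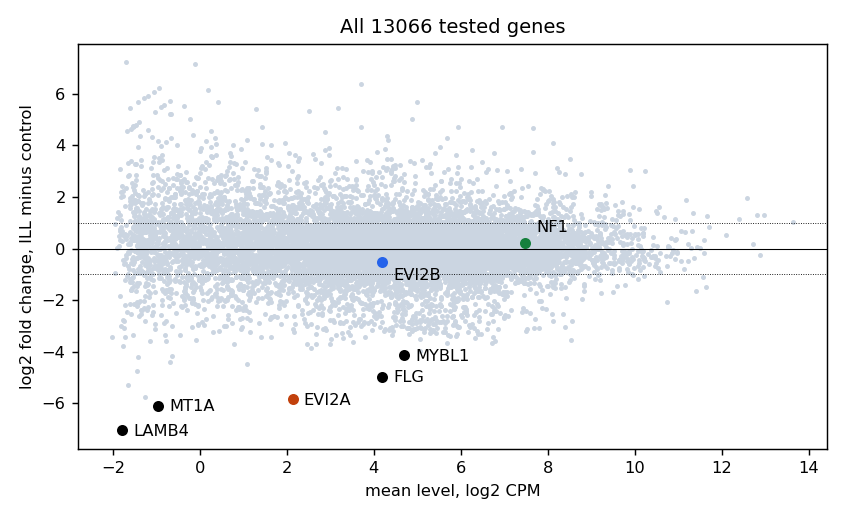
Log2 fold change of ILL minus control (vertical axis) against mean level in log2 CPM (horizontal axis) for the 13066 tested genes, with dotted lines at a 2-fold change. EVI2A lies at -5.84, below FLG at -4.98 and MYBL1 at -4.14, and only the weakly expressed LAMB4 and MT1A lie lower.

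EVI2B, the direct neighbor of EVI2A on the same strand, was more abundant and fell much less. It had 865, 661 and 811 counts in controls, or 22.3, 18.8 and 22.9 CPM. With ILL it had 472, 540 and 557 counts, or 13.5, 15.7 and 15.9 CPM. The groups did not overlap, and the mean of 21.3 ± 2.21 CPM in controls compared with 15.0 ± 1.35 CPM after ILL (SD, n = 3 each). EdgeR's test gave a log2 fold change of -0.51 with a standard error of 0.10 and an adjusted p of 0.000107, so EVI2B fell to 0.704 of its control level and was not called at the 2-fold cutoff.

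NF1, the host gene, rose slightly. Control libraries held 6403, 5660 and 6024 counts, or 165, 161 and 170 CPM, and ILL libraries held 6899, 6922 and 6312 counts, or 197, 201 and 181 CPM. The lowest ILL library lay above the highest control library. The mean of 165 ± 4.65 CPM in controls compared with 193 ± 10.9 CPM after ILL (SD, n = 3 each). By edgeR this was a log2 fold change of 0.22 with a standard error of 0.05 and an adjusted p of 0.000782, or a 16.6% higher level. NF1 was not called at the 2-fold cutoff. NF1 has several pseudogenes in the genome, and reads that they share with NF1 could be placed on either. That NF1 and EVI2B both passed the adjusted p is to be read against the 73.1% of all genes that did so.

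OMG was close to absent in both groups. It had 2, 0 and 9 counts in controls and 0, 4 and 0 with ILL, which is at most 0.254 CPM, and the groups overlapped. A difference was not detectable at this depth, and no fold change is given from the main test because the gene was removed by the filter. Of the 8 oligodendrocyte markers, MOG, OLIG1 and SOX10 were among those at 0 in every library, and MBP, which encodes myelin basic protein and is also transcribed outside the brain, was the only one of them that passed the filter. Their summed level, nearly all of it MBP, was 45.6 to 50.1 CPM in controls and 70.6 to 77.0 CPM with ILL.

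**Figure D3:**
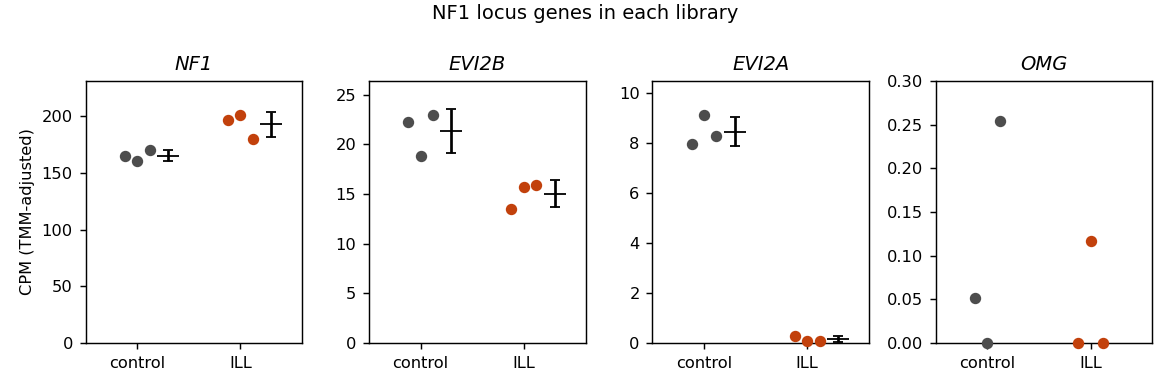
CPM of each NF1 locus gene in the 3 control and 3 ILL libraries, with 1 point per library, a vertical axis from 0 for each gene, and the mean with SD as a bar beside the points for all genes but OMG. EVI2A drops from about its control mean of 8.45 to 0.143 CPM, EVI2B and NF1 shift by smaller amounts in opposite directions, and OMG stays under 0.3 CPM.

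Per length, the levels of the locus genes were compared in FPKM, which the authors computed with 1 gene length per gene. In controls NF1 was at 12.8 ± 0.32 FPKM (SD, n = 3), EVI2B at 10.9 ± 1.11, EVI2A at 3.0 ± 0.209 and OMG at 0.0586 ± 0.0772 FPKM, and the ranges of neighbors in this order did not overlap. With ILL, NF1 was at 14.2 ± 0.792 FPKM, EVI2B at 7.30 ± 0.621, EVI2A at 0.0486 ± 0.0424 and OMG at 0.0212 ± 0.0367 FPKM (SD, n = 3). The ILL values of EVI2A, at 0.0973, 0.0196 and 0.0290 FPKM, then lay within the range of OMG over all libraries, which was 0 to 0.146 FPKM. As a share of the NF1 level in the same library, EVI2A was at 22.2%, 26% and 22.4% in controls and at 0.667%, 0.133% and 0.219% with ILL. EVI2B was at 89.1%, 77.0% and 88.8% of NF1 in controls and at 45.1%, 51.5% and 58.2% with ILL. These FPKM levels rest on lengths of 13258 bases for NF1, 2010 for EVI2B, 2883 for EVI2A and 1775 for OMG. With the union of exons in GENCODE release 29, a length chosen after the data were seen, NF1 was at 6.24 FPKM in controls and thus below EVI2B at 10.5 FPKM, so the order of these 2 genes depends on the annotation. EVI2A was then at 4.18 FPKM, still between EVI2B and OMG. The shares of the NF1 level given above depend on the lengths as well, and with these lengths both EVI2A and EVI2B were at larger shares of NF1. The sources used here do not say whether reads were counted by strand, and without strand, reads from the unspliced NF1 intron and from the nested genes cannot be told apart.

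The leukocyte background of EVI2A and EVI2B was set beside these values. Of 28 leukocyte genes in the table, 10 passed the filter, and CD37, AIF1 and CD3D were among those at 0 in every library. PTPRC, CD53 and MS4A1, which mark most leukocytes or B cells, had at most 9, 4 and 1 counts in any library. LAPTM5, a lysosomal membrane protein of blood cells, was expressed, at 3829, 3389 and 3526 counts in controls and 2816, 2724 and 2904 with ILL. Its log2 fold change was -0.28 (standard error 0.06). Several other genes of the list were expressed too. Mean control levels were 398 CPM for ARHGDIB, 280 for RAC2, 98.3 for LAPTM5, 60.0 for LCP1 and 55.7 for CORO1A. Over the 10 tested genes, 3 were called, all of them higher with ILL, beside 23.9% called among all genes, and their median log2 fold change was 0.06 against -0.0012 for all genes tested. The called genes were the actin-bundling protein LCP1, with a log2 fold change of 3.47 (standard error 0.05), the cortactin-related HCLS1 at 1.27 and the B-cell receptor component CD79A at 2.10. CD79A was weakly expressed, at 20, 10 and 7 counts in controls and 48, 67 and 36 with ILL, so its call rests on few counts. At an adjusted p under 0.05 alone, 5 of the 10 were higher and 3 lower, beside 36.2% and 36.9% of all genes. ARHGDIB, a GDP dissociation inhibitor of blood cells, fell the most of the 3, by 0.74 on the log2 scale, and ITGB2, the integrin beta chain of leukocytes, fell by 0.50. The whole leukocyte marker set of 10 genes had a summed level of 152 to 158 CPM in controls and 134 to 136 CPM with ILL, nearly all of it from LAPTM5 and CORO1A.

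Genes around NF1 on chromosome 17 were then examined, to see which of them moved with EVI2A. Within 2 Mb of NF1 on either side, 37 other genes were counted and 33 tested. Of these, 3 were called higher and 6 lower with ILL, or 27.3% beside 23.9% of all genes, and their median log2 fold change was -0.03 against -0.0012 for all genes tested. That EVI2A lay below all of them was fixed by its choice as the largest decrease and is no result about the locus. The lowest neighbor was RHBDL3, a rhomboid family protein, at -3.08 (standard error 0.81), with 12, 21 and 14 control counts and 2, 2 and 1 with ILL. ATAD5, which unloads the replication clamp PCNA, fell from 38.9 ± 3.37 to 5.68 ± 0.661 CPM (SD, n = 3), a change of -2.78 on the log2 scale with a standard error of 0.10 and an adjusted p of 1.49e-17 by edgeR. ASIC2, an acid-sensing ion channel whose gene reaches into the window from a start beyond it, was the remaining gene of the 3 lowest, at -1.78.

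Among the 12 tested genes nearest to NF1, 6 on each side, 1 was called higher and 2 lower, and 4 were higher and 5 lower at the adjusted p alone. These shares of 25% and 75% lay near the 23.9% and 73.1% of all genes. On the centromeric side, RNF135, a ubiquitin ligase, had a log2 fold change of 0.36 and ADAP2, an ARF GTPase-activating protein, 1.41. TEFM, the mitochondrial transcription elongation factor, was at -0.39, followed by ATAD5, by CRLF3 at 0.11 and by the Golgi SNARE GOSR1 at -0.03, and the last 2 of these did not pass the test. On the telomeric side, RAB11FIP4, an effector of RAB11 whose gene starts 69.7 kb from the EVI2A start, was at 0.96 (standard error 0.07). COPRS, a cofactor of the arginine methyltransferase PRMT5, was at -1.18, UTP6 at -0.71, and SUZ12, a subunit of Polycomb repressive complex PRC2, at -0.82. LRRC37B, which belongs to a family of near-identical genes, was at 0.25 and did not pass the test, and RHOT1, a mitochondrial GTPase, was at 0.51.

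**Figure D4:**
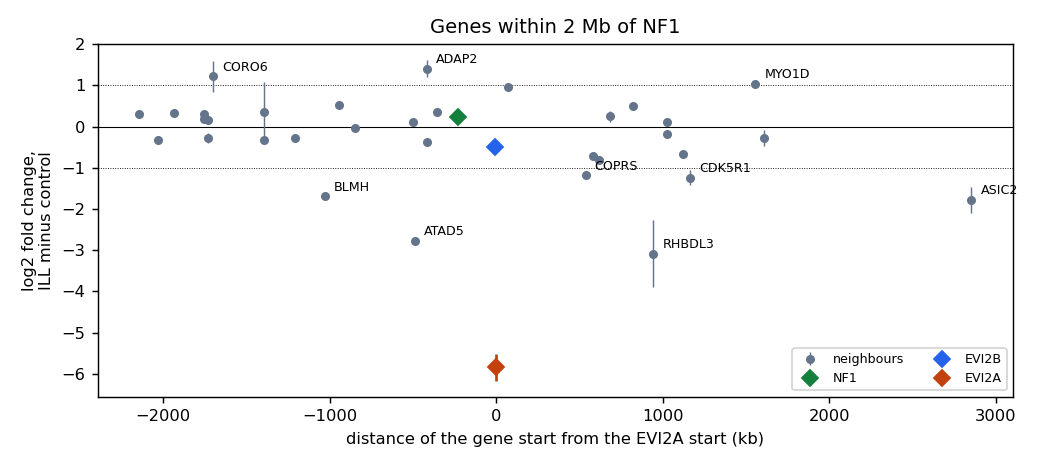
Log2 fold change of ILL minus control (vertical axis, with standard errors) for 33 tested genes within 2 Mb of NF1 and for the 3 tested members, against the distance of each gene's start from that of EVI2A in kb (horizontal axis). EVI2A, chosen for its decrease, lies at -5.84, the neighbors shown reach down to -3.08, and dotted lines mark a 2-fold change.

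RAS regulators were followed because neurofibromin acts on RAS. Of 13 other genes of RAS GTPase-activating proteins and the related IQGAP scaffolds, 12 were tested, and 3 were called higher and 2 lower with ILL, or 41.7% beside 23.9% of all genes. Their median log2 fold change was 0.30 against -0.0012 for all genes tested. RASAL2, which acts on RAS as neurofibromin does, had 4093, 3506 and 3686 counts in controls and 1805, 1680 and 1649 with ILL, a log2 fold change of -1.07 (standard error 0.06). DAB2IP, another RAS GTPase-activating protein, went the other way, from 40.7 ± 2.03 to 85.2 ± 9.98 CPM (SD, n = 3). The log2 fold change of DAB2IP was 1.07 (standard error 0.07), so it lay just above the cutoff. The calcium-regulated family members RASAL1 and RASA4 rose by 1.29 and 2.08 on the log2 scale, though RASA4 has a near-identical copy, RASA4B, and its counts are uncertain. IQGAP3, a scaffold known from dividing cells, fell by 2.15, while the abundant IQGAP1 was at 0.32 and RASA1 at -0.08, where RASA1 did not pass the test. Per length, RASA1 was at 14.6 FPKM on average over all libraries, close to NF1, and IQGAP1 was at 66.7 FPKM.

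Among 18 genes of RAS GTPases, exchange factors and their partners, 15 were tested, and 3 were called higher and 1 lower, or 26.7%, near the 23.9% of all genes. The median log2 fold change was 0.65 against -0.0012 for all genes. RASGRF1, a calcium-regulated exchange factor that loads RAS with GTP, fell from 613, 543 and 608 counts to 64, 77 and 90, a log2 fold change of -2.86 (standard error 0.15). RASGRP3, an exchange factor that responds to diacylglycerol, rose from 2, 12 and 10 counts to 63, 61 and 54, and MRAS rose by 1.30 on the log2 scale. RASGRP2 was called at 1.16 with a wide standard error of 0.47. At the adjusted p alone, 11 of the 15 were higher and 1 lower, where 36.2% and 36.9% of all genes were. The exchange factors SOS1 and SOS2 were at 0.67 and 0.94, NRAS at 0.41, and HRAS at -0.14 without passing the test.

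Among 17 genes whose products bind or regulate neurofibromin, 1 was called higher and 1 lower, or 11.8% beside 23.9% of all genes, and 8 were higher and 6 lower at the adjusted p alone, beside 36.2% and 36.9% of all. DPYSL2, the microtubule-binding protein CRMP2, fell from 106 ± 1.69 to 38.1 ± 1.22 CPM (SD, n = 3), and the cofilin kinase LIMK2 rose by 1.12 on the log2 scale. SPRED1, which brings neurofibromin to the membrane, was at -0.12 and did not pass the test, and SPRED2 was at 0.56. CUL3, the ubiquitin ligase scaffold that acts on neurofibromin, was at -0.28. Of 10 genes that report ERK signaling downstream of RAS, 1 was called, PHLDA1, at 1.04 (standard error 0.05), which is 10% of them beside 23.9% of all genes. At the adjusted p alone, 4 of them were higher (PHLDA1, DUSP4, ETV5 and EPHA4) and 3 lower (ETV4, CCND1 and EPHA2), so these genes did not move one way, and 73.1% of all genes passed this threshold. The median log2 fold changes were 0.25 for the neurofibromin partners and 0.14 for the ERK genes.

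**Figure D5:**
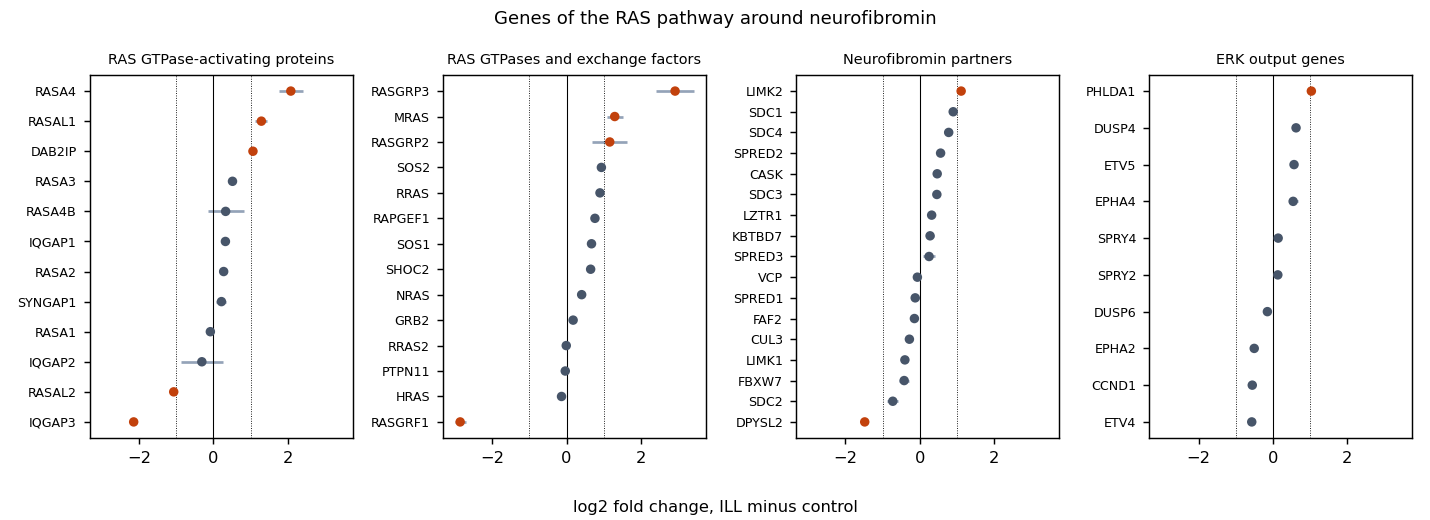
Log2 fold change of ILL minus control (horizontal axis, with standard errors) for tested genes of 4 lists around neurofibromin, 1 row per gene, with called genes in orange and dotted lines at a 2-fold change. Values run in both directions in each list, from -2.86 for RASGRF1 to 2.92 for RASGRP3.

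The partners of OMG at the Nogo receptor were mostly low. Of 13 such genes, 6 passed the filter. No gene of the 6 was called by edgeR, while 4 of them were higher at an adjusted p under 0.05 alone, and DESeq2 called 2 of the 10 genes it tested. Of all genes, 23.9% were called and 36.2% were higher at the adjusted p alone. RTN4, which encodes the ligand Nogo, was at a log2 fold change of 0.29 (standard error 0.05), and the receptor gene RTN4R was at 0.27 (standard error 0.11). The larger changes among the 4 were in KIAA0319L at 0.94 (standard error 0.08) and ADGRB1 at 0.65 (standard error 0.22), where the groups of ADGRB1 overlapped.

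Genes with a pattern like that of EVI2A over the 6 libraries were named by the correlation of log2 of CPM plus 0.5 among 12050 genes with a mean of at least 1 CPM. The closest were NDC1, a nuclear pore protein, with a Pearson r of 0.9999, the chaperone partner CHORDC1 at 0.9998, the transcription factor FOXD1 at 0.9996, the kinase VRK1 at 0.9995 and the MDM2-binding protein MTBP at 0.9994. They fell by less than EVI2A, with log2 fold changes from -2.62 in VRK1 to -0.80 in FOXD1. For NF1, the closest were SLAMF7 at 0.9987, GBA2, KCNMB3, KATNIP and ABCA2, with log2 fold changes from 0.47 to 0.85. Such values mostly restate the difference between the groups, since the libraries form 2 sets and 3764 genes had an r above 0.9 with EVI2A.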

How the data were processed

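Total RNA of HCCC9810 cells was sequenced as mRNA libraries, 3 with vehicle and 3 with ILL. The authors deposited 1 table of whole-number counts per gene and 1 table of FPKM values, each with the 6 libraries. The submitters' processing notes name GRCh38 and DESeq2, and the aligner, counter and strand setting are not given in the sources used here. Dividing the deposited counts by library total and 1 length per gene returned 100% of 88055 nonzero FPKM values within 0.1%, so the FPKM rest on the same counts. The libraries held 34282764 to 37758569 counts, and counting intervals and floors cover counting error only.

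Counts were filtered with filterByExpr, scaled by TMM and tested in edgeR 4.0.16 (R 4.3.3) with the quasi-likelihood test, ILL against control, without a block, after a check of the code on simulated data. Deposited FPKM were used for levels between genes, and as log2(FPKM + pseudocount) in limma 3.58.1 as an alternative, where fold changes of low genes are understated. DESeq2 1.42.0, other normalizations and filters, a replicate block and leaving out each library were the remaining alternatives. Gene positions and introns came from GENCODE release 29, which held 18841 of the 19470 symbols. The intron is that of the coding NF1 transcript with the longest span. Promoter sequences came from RefSeq.

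The members and lists were chosen with earlier results of these data known. Besides the members, the genes named were up to 3 called genes at each end of a list, up to 3 with the highest mean FPKM in lists of 18 or fewer genes, the 6 tested neighbors nearest to NF1 on each side, the 5 decreases next to EVI2A and the 5 closest patterns. Further genes named for their role were chosen after their values were seen. Some genes of the lists are counted in them but not reported here by name.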

Additional observations from a re-analysis of the deposited data

How the results depend on the processing

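EVI2A kept its decrease in each setting that gave a value. EVI2A was chosen for this decrease in the same libraries, so its direction here is a description and no test. Its log2 fold change was -1.93 with limma on log2(FPKM + 1), with and without a filter, and -4.42 on log2(FPKM + 0.1), where the pseudocount exceeds or nears its ILL level, and it ranged from -6.81 (without ILL replicate 1) to -5.48 when 1 library was left out. A filter of at least 10 counts in every library removed EVI2A and OMG. OMG had values only where low genes were kept, at -1.33 without a filter (edgeR adjusted p = 0.435), -1.39 with DESeq2 (adjusted p = 0.555) and -0.05 with limma on log2(FPKM + 1) without a filter (adjusted p = 0.49). EVI2B and NF1 kept their direction and an adjusted p under 0.05 in each setting run, and without 1 library ranged from -0.59 to -0.43 and from 0.19 to 0.27. The rise of NF1 was smaller in other settings. It was 0.15 with library size only (edgeR adjusted p = 0.0135) and 0.15 with limma on log2(FPKM + 0.1) (adjusted p = 0.0406). Limma on log2(FPKM + 1) gave 0.14 with and without a filter (adjusted p = 0.0402 and 0.0471). EVI2B was between -0.58 and -0.52 in these settings. Limma on log2(FPKM + 1) called 1 of 9 tested RAS GTPase-activating proteins, 0 of 11 RAS GTPases and exchange factors and 1 of 17 neurofibromin partners. It also called 0 of 10 ERK genes, 3 of 29 neighbors and 29 of 130 nested genes. Without the FPKM filter the counts were 1 of 13, 1 of 17, 1 of 17, 0 of 10, 3 of 34 and 30 of 247. With log2(FPKM + 0.1) they were 3 of 9 RAS GTPase-activating proteins, 0 of 11 RAS GTPases and exchange factors, 0 of 10 ERK genes and 5 of 29 neighbors. Calls over all genes fell in these limma settings too, with totals given further on. With library size alone, 0 of 10 ERK genes were called, since PHLDA1 fell under the fold cutoff. The median of all genes was then -0.07, and 3137 of them were called. With the adjusted p alone the counts are to be read against the 73.1% of all genes that passed it. They were 8 of 12 tested RAS GTPase-activating proteins and 12 of 15 RAS GTPases and exchange factors. Of the neurofibromin partners 14 of 17 passed, and of the ERK genes 7 of 10. The counts were 4 of 6 Nogo receptor genes, 8 of 10 leukocyte genes, 27 of 33 neighbors and 127 of 169 nested genes. The Nogo receptor list had 1 called gene of 11 tested without a filter and 2 of 10 with DESeq2. Over all genes these settings called 3330 and 3241. When 1 library was left out, 1 to 2 of the 7 or 8 tested were called, beside 3083 to 3165 over all genes. Over all genes, limma on log2(FPKM + 1) called 1591 and on log2(FPKM + 0.1) 2156, against 3120 by edgeR, and the share of calls that were higher was 42% and 42.2% against 52.4%. Without the FPKM filter it called 1609, of which 42.3% were higher. The numbers of genes tested by limma are not given here, so its totals are not shares of genes tested. The replicate numbers were used as a block, although deviations of same-numbered libraries correlated only at -0.02 to 0.01. These values show no shared shift, but with 3 libraries per group they cannot tell whether same-numbered libraries were handled together. With this replicate block the log2 fold changes were -5.85 for EVI2A, -0.50 for EVI2B and 0.22 for NF1, and 3111 genes were called. The causes of the changed counts were not tested.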

Other observations

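Genes nested in introns of other hosts were read in the same libraries. Of 386 such genes in the table, 169 were tested, and 31 were called higher and 25 lower with ILL, or 33.1% beside 23.9% of all genes. Their median log2 fold change was 0.06 against -0.0012 for all genes tested. In 103 pairs both the nested gene and its host were tested, and the nested gene was called in 39 of them (37.9%, beside 23.9% of all genes), which hold 38 distinct nested genes. The host was called as well in 13 of the 39 pairs (33.3%, beside 23.9% of all genes), in the same direction in 7 and in the opposite direction in 6. EVI2A minus NF1 was -6.07 on the log2 scale, a place that its choice as the largest decrease sets. Among the other pairs the lowest difference was -3.75, for THNSL1 (-1.84) within ENKUR (1.91). EVI2B minus NF1 was -0.73, and the median over the other pairs was 0.08. HSPE1, a mitochondrial co-chaperonin, and HSPD1, the chaperonin it works with, were both lower, at -1.55 and -1.47. Hosts were judged by their annotated transcript with the longest span. HSPE1 lies in intron 1 of that transcript of HSPD1, so this pairing may not hold for other transcripts. FILIP1L was higher, at 1.51, within CMSS1, which was lower, at -1.77. Without strand, reads of a nested gene and of its host's intron cannot be told apart in these pairs either.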
